A study of Mus musculus with 19 samples.

Results

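Sqstm1, Optn, Tbk1, Map1lc3b, Gabarapl1, Becn1, Atg5, Atg7, Ulk1 and Bnip3l are 10 genes of autophagy and mitophagy, chosen by symbol and found through the GENCODE annotation of the mouse among the 56980 genes of the count table. They were followed in bulk total RNA sequencing of CD11b+ cells, which were enriched by magnetic-activated cell sorting from brain, given as whole brain in the labels and as brain without the olfactory bulb and cerebellum in the methods. The 19 male mice were 3 to 4 months old, and KO mice and their wildtype littermates came from heterozygous breeding pairs. The litter of each mouse is not given in the labels. KO mice carried the PARK7/DJ-1 gene trap allele (B6;129P2-Park7Gt(XE726)Byg/Mmucd), a germline allele that is not limited to a cell type and that had been backcrossed to C57BL/6NCrl, and wildtype mice lacked it. Both genotypes received 1 intraperitoneal dose of LPS (lipopolysaccharide from E. coli O55:B5, 4 μg per g body weight) or the PBS saline vehicle 6 h before perfusion, giving 4 wildtype PBS, 5 wildtype LPS, 5 KO PBS and 5 KO LPS libraries, each from 1 mouse as far as the labels say. PARK7 encodes DJ-1, a protein of the oxidative stress response whose loss causes an inherited form of Parkinson's disease.

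Autophagy encloses cell material in a double membrane and delivers it to lysosomes. The ULK1 kinase complex starts the process, a lipid kinase complex built on Beclin 1 marks the membrane, and ATG7 and ATG5 take part in attaching proteins of the ATG8 family, such as LC3B and GABARAPL1, to the growing membrane. Selective receptors then tie a cargo to the ATG8 proteins: p62 (Sqstm1) and optineurin (Optn) bind ubiquitin, TBK1 phosphorylates both of them, and BNIP3L, also called NIX, sits in the outer mitochondrial membrane and marks mitochondria for removal (mitophagy). In microglia and other macrophages these proteins also take part in the handling of bacteria and in limiting inflammatory signalling.

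The libraries held 11936364 to 22788884 counts with a median of 17211939, and 3 counts, taken as the detection floor, equalled 0.139 to 0.256 CPM. CPM here are counts scaled to a fixed total by each library's effective size after TMM normalisation. All 10 genes were among the 18739 that passed the low-count filter, and the lowest single value of any of them was 6.28 CPM (Optn). Park7 itself had mean levels of 22.3 ± 2.08 CPM (SD, n = 4) in wildtype PBS and 25.3 ± 3.91 (n = 5) in wildtype LPS libraries against 1.66 ± 0.962 and 3.45 ± 1.72 in the KO groups (n = 5 each), so the targeted gene followed the labels. The 7 microglial markers examined (P2ry12, Tmem119, Gpr34, Olfml3, Siglech, Sall1 and Cx3cr1) were present in every group, and all 7 were called lower after LPS in both genotypes: their summed level had a median of 14660 CPM in wildtype PBS and 4977 in wildtype LPS, and of 13760 and 4461 in the KO groups. The 5 monocyte markers were all called higher in both genotypes, from a median sum of 32.5 to 346 CPM in wildtype and from 30.8 to 198 in KO, and of the 7 neutrophil markers 4 were called higher in wildtype and 5 in KO, with the sum going from 45.2 to 196 and from 43.3 to 258 CPM. Of the 4 markers of border-associated macrophages 2 were called lower in both genotypes, with a median sum of 430.1 and 240.3 CPM in wildtype PBS and LPS and of 378 and 277 CPM in KO. Among 19 markers of oligodendrocytes, astrocytes, neurons and endothelial cells, Gfap and Tubb3 were called higher and Cldn5 lower in both genotypes. Whether a change in the mix of cells contributes to the LPS changes below was not tested, and in bulk RNA fewer cells of a type and less RNA per cell cannot be told apart.

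The upstream stretches of the genes with the highest and the lowest log2 fold change for LPS in wildtype (Optn and Ulk1), and of those with a motif match (Atg5 and Atg7), are shown so that the letters searched can be seen in their context. RefSeq (build GRCm38.p6) gave the 250 bases upstream of a start for 8 of the 10 genes, not for Becn1 and Bnip3l, and an exact match placed each once on its chromosome of GRCm39, the build of the count table. Each was searched on both strands for the E-box CACGTG, for TGACNNNGC (antioxidant response element), for GGGANNTTC (NF-kappaB) and for TGANTCA (AP-1), the last of which can overlap the antioxidant element. Capitals mark the letters that matched, and sequences run 5′ to 3′ on the strand of the gene.
Optn, chr2:5068929-5069178, minus strand: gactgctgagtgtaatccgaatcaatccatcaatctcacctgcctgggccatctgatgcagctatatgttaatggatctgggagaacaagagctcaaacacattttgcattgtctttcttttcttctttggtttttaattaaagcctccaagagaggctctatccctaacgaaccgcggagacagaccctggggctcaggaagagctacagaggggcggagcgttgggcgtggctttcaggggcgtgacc
Ulk1, chr5:110957996-110958197, minus strand: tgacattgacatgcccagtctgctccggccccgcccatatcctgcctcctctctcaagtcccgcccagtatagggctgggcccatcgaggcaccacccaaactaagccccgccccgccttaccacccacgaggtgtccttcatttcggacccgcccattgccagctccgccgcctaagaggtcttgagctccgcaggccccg
Atg5, chr10:44144085-44144334, plus strand: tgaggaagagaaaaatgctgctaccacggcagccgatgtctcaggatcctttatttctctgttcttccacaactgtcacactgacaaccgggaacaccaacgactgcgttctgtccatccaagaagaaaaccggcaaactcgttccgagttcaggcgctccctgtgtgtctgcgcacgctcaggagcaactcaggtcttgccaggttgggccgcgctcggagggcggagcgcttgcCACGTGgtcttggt
Atg7, chr6:114647807-114648056, plus strand: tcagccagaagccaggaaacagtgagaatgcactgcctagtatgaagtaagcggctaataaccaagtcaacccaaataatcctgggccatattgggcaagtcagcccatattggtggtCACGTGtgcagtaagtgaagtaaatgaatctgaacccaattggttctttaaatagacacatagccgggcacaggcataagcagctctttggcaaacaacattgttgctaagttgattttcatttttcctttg
The last 17 bases of the Optn stretch and the last 9 of the Atg5 stretch lie in an annotated exon. The Ulk1 stretch was shortened to 202 bases by leaving off 48 such bases. Both the Atg5 and the Atg7 stretch lie inside the annotated genes because GENCODE places an earlier start for both. The Atg5 stretch reaches the canonical GENCODE start at 44144326. The Atg7 stretch lies far downstream of the canonical start at 114620058, so it is not the canonical promoter. An annotated exon reaches the far end of the Sqstm1 window (chr11:50101648-50101897). That window lies downstream of the canonical start at 50102885 and is not printed. The E-box was matched in 2 of the 8 windows. In Atg5 it was at 14 to 9 bases upstream of the RefSeq start and in Atg7 at 132 to 127 bases upstream of it. Those 2 genes were among the members that were not called below. None of the other motifs was found in the 8 windows. Of all 32851 RefSeq windows, 6.02% held the E-box, 10.2% the antioxidant element, 3.23% the NF-kappaB letters and 6.75% the AP-1 letters. At such shares, finding none of a motif in 8 windows does not set them apart. A match of this kind describes letters only, and the absence of one says nothing about a factor.

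In both genotypes, LPS was accompanied by more RNA of the ubiquitin-binding receptors Sqstm1 and Optn and by less RNA of the initiating kinase Ulk1 and of the mitochondrial receptor Bnip3l. Calls needed a log2 fold change of at least 0.5 in size together with an edgeR quasi-likelihood p, adjusted by Benjamini-Hochberg over all genes tested, under 0.05. In wildtype cells 2 of the 10 genes were called higher and 2 lower, against 18.4% and 17.4% of all genes, and in KO cells again 2 higher and 2 lower, against 20.1% and 19%. These shares lie close to the background of all genes. At any fold change, 3 genes were higher and 3 lower in each genotype, where the background was 22% and 19.7% in wildtype and 24.2% and 21.9% in KO. The median log2 fold change of the 10 genes was -0.01 in wildtype and 0.10 in KO, beside -0.06 and -0.01 over all genes.

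**Figure D1:**
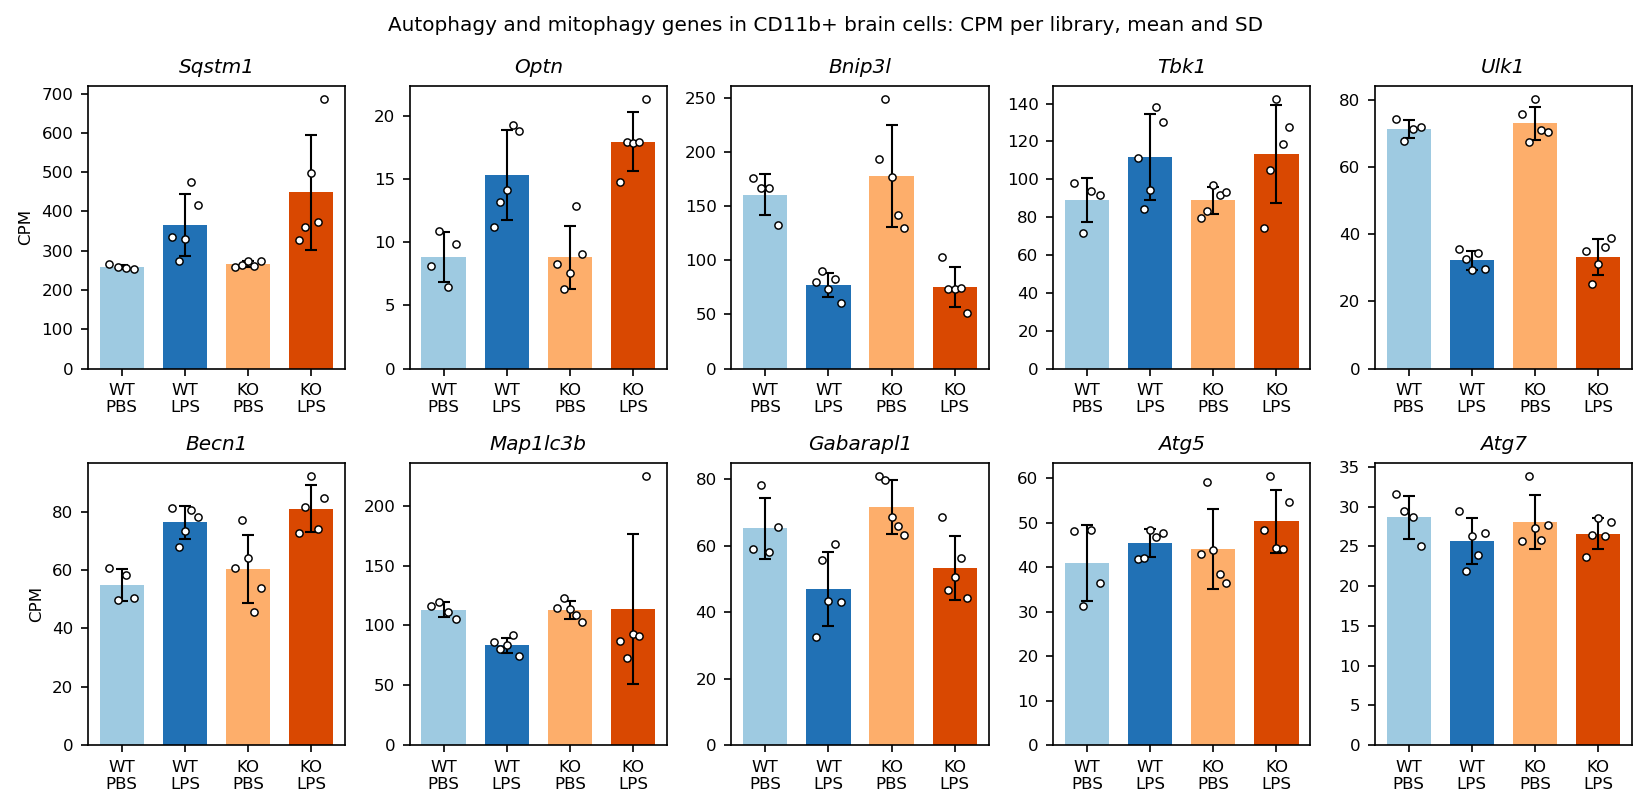
CPM of the 10 genes in each library (white points), with bars from 0 for the group mean and whiskers for the SD, in wildtype (WT, blue) and KO (orange) mice after PBS (pale) or LPS (dark). Ulk1 and Bnip3l sit lower in every LPS library than in any PBS library of the same genotype, Optn and Sqstm1 sit higher, and 1 KO LPS library stands apart for Map1lc3b at 225 CPM.

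Optn (chromosome 2, 5022703 to 5068945, minus strand), which encodes optineurin, a receptor for ubiquitinated mitochondria and bacteria, showed the largest rise of the set. Its levels were 8.08, 10.9, 6.44 and 9.87 CPM in the wildtype PBS libraries and 11.2, 13.2, 14.1, 19.2 and 18.8 CPM after LPS. In KO mice they were 8.29, 6.28, 7.52, 12.9 and 9.08 CPM after PBS and 14.7, 17.9, 17.8, 18.0 and 21.3 CPM after LPS. Every LPS library lay above every PBS library of its genotype, with the smaller gap in wildtype. Its log2 fold change was 0.79 (SE 0.218, adjusted p = 0.00623) in wildtype and 1.03 (SE 0.203, adjusted p = 0.000362) in KO, or 1.73-fold and 2.04-fold. Optn was nevertheless the least abundant of the 10 per kilobase of transcript under PBS.

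Sqstm1 (chromosome 11, 50089572 to 50107684, minus strand) encodes p62, which gathers ubiquitinated cargo and is itself degraded by autophagy. The wildtype PBS libraries held 265, 258, 255 and 254 CPM, and the wildtype LPS libraries 334, 274, 329, 474 and 416 CPM. The KO PBS libraries held 259, 264, 274, 262 and 274 CPM, and the KO LPS libraries 328, 361, 498, 372 and 685 CPM. The PBS levels were nearly alike in all 9 mice, while the LPS levels spread widely and, within each genotype, lay above the PBS levels without overlap. The log2 fold change was 0.75 in KO (SE 0.172, adjusted p = 0.00134, 1.68-fold). In wildtype it was 0.50 (SE 0.183, adjusted p = 0.0342, 1.42-fold), which sits on the fold threshold. The wildtype call was lost in several other fits, among them DESeq2, edgeR with its size factors, either other filter and only the groups compared (0.44 to 0.48 in these). It was also lost when any 1 of the 4 wildtype PBS libraries, KO PBS replicate 4 or wildtype LPS replicate 4 or 5 was left out, with the lowest value without wildtype LPS replicate 4 (0.39, adjusted p = 0.102). On the opposite strand the exons of Mgat4b and Mrnip overlap Sqstm1, at 47.1 to 72.4 and 0.225 to 2.72 CPM, and whether the counting used strand is not given in the sources used here.

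Bnip3l (chromosome 14, 67222678 to 67246356, minus strand), the NIX mitophagy receptor, fell by about the same factor as Ulk1. Wildtype PBS libraries had 177, 167, 167 and 133 CPM and wildtype LPS libraries 80.2, 89.8, 73.2, 82.5 and 60.2 CPM. KO PBS libraries had 194, 249, 177, 142 and 129.8 CPM and KO LPS libraries 103, 73.8, 73.6, 74.8 and 51.0 CPM. All LPS values were below all PBS values of the same genotype, and the KO PBS group varied most. In the fit this gave a log2 fold change of -1.06 (SE 0.190, adjusted p = 0.000159) in wildtype and -1.24 (SE 0.182, adjusted p = 1.48e-05) in KO, so that PBS levels were 2.08-fold and 2.37-fold higher. A pseudogene copy, Bnip3l-ps, was counted at no more than 1.71 CPM in any library.

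Ulk1 (chromosome 5, 110931496 to 110957995, minus strand), the kinase that starts autophagosome formation and is held in check by the nutrient sensor mTORC1, gave the smallest adjusted p of the set. It was at 74.2, 67.8, 71.2 and 71.8 CPM in wildtype PBS and at 35.5, 32.7, 29.2, 34.3 and 29.5 CPM in wildtype LPS libraries. In KO mice it was at 75.7, 67.4, 80.1, 71.1 and 70.5 CPM after PBS and at 34.9, 25.0, 31.2, 36.3 and 39.0 CPM after LPS. The groups were far apart, with the lowest PBS library well above the highest LPS library. Its fitted log2 fold change was -1.14 (SE 0.110, adjusted p = 1.37e-07) in wildtype and -1.13 (SE 0.105, adjusted p = 6.25e-08) in KO, with PBS 2.21-fold and 2.19-fold higher.

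Tbk1 (chromosome 10, 121382360 to 121422848, minus strand), the kinase that phosphorylates optineurin and p62 and also acts in interferon induction, was not called. Its levels were 98.2, 71.8, 94.1 and 91.9 CPM in wildtype PBS and 111, 84.2, 94.4, 138 and 130.2 CPM in wildtype LPS libraries. In KO mice they were 79.6, 83.3, 97.0, 91.6 and 93.1 CPM after PBS and 74.1, 105, 142, 119 and 128 CPM after LPS. The groups overlapped in both genotypes, with the wider spread after LPS. The log2 fold change was 0.33 (SE 0.168, adjusted p = 0.132) in wildtype and 0.35 (SE 0.158, adjusted p = 0.0784) in KO.

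Becn1 (chromosome 11, 101176769 to 101193122, minus strand), which encodes Beclin 1, the scaffold of the autophagy lipid kinase, was higher after LPS by its adjusted p but stayed under the fold threshold. Wildtype libraries had 60.8, 49.9, 58.4 and 50.4 CPM after PBS and 81.4, 67.8, 73.5, 80.7 and 78.1 CPM after LPS. KO libraries had 60.8, 77.1, 64.2, 45.7 and 53.7 CPM after PBS and 72.8, 81.6, 92.2, 73.9 and 84.7 CPM after LPS. The groups were separate in wildtype and overlapped in KO, where 1 PBS library reached 77.1 CPM. The log2 fold change was 0.48 (SE 0.127, adjusted p = 0.00509) in wildtype and 0.43 (SE 0.119, adjusted p = 0.00609) in KO.

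The ATG8 genes of the set did not rise. Gabarapl1 (chromosome 6, 129509725 to 129520544, plus strand) had 59.1, 78.2, 58.2 and 65.5 CPM in wildtype PBS and 32.6, 55.6, 43.4, 60.4 and 43.2 CPM in wildtype LPS libraries. KO mice had 81.0, 79.8, 68.5, 65.9 and 63.3 CPM after PBS and 68.6, 46.6, 50.4, 56.3 and 44.3 CPM after LPS. The LPS libraries were mostly lower but overlapped the PBS libraries in both genotypes. The log2 fold change was -0.47 (SE 0.164, adjusted p = 0.0261) in wildtype and -0.43 (SE 0.155, adjusted p = 0.0294) in KO, under the fold threshold.

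Map1lc3b (chromosome 8, 122317100 to 122325499, plus strand), which encodes LC3B, the ATG8 protein most used to follow autophagosomes, depended on a single mouse. Wildtype libraries held 116, 120, 111 and 106 CPM after PBS and 86.1, 80.2, 83.5, 92.0 and 74.7 CPM after LPS, with no overlap. KO PBS libraries held 115, 123, 114, 109 and 103 CPM, and KO LPS libraries 87.2, 72.9, 92.6, 91.2 and 225 CPM. Of the KO LPS libraries, 4 lay below every KO PBS library and replicate 5 lay above all of them. The log2 fold change was -0.44 (SE 0.227, adjusted p = 0.131) in wildtype and 0.01 (SE 0.215, adjusted p = 0.968) in KO. Without KO LPS replicate 5, an alternative in which the shared spread also fell, it was -0.44 (SE 0.089, adjusted p = 0.000509) in wildtype and -0.39 (SE 0.090, adjusted p = 0.00162) in KO, still under the fold threshold. Zcchc14, whose exons overlap Map1lc3b on the opposite strand, was at 92.1 CPM in that library and at 87.1 to 100.4 CPM in the other 4.

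That same library carried the highest Sqstm1 of the series. Its Map1lc3b level was 2.52 times, and its Sqstm1 level 1.87 times, the median of the other 4 KO LPS libraries, whereas the ratio lay between 0.687 and 1.19 for the remaining 8 genes. Of 9460 genes with a median of at least 10 CPM in those 4 libraries, 58 (0.613%) had a ratio as large as that of Map1lc3b. In 541 genes (2.89%) this library was the highest value and stood apart from the other KO LPS libraries by the criterion of the closing section. The other 4 KO LPS libraries had 47 (0.251%) to 233 (1.24%) such genes. Within their own groups the count was 468 (2.50%) for wildtype LPS replicate 1 and 451 (2.41%) for KO PBS replicate 1. Named after their values were seen, the stress genes Atf3, Ddit3 and Hspa1a were at 1215, 46.3 and 493 CPM there and at most 642, 15.5 and 172 CPM in the other 18 libraries. Its summed level of 19 oligodendrocyte, astrocyte, neuron and endothelial markers was 880 CPM, the lowest of the 19 libraries. Wildtype LPS replicate 1 was almost as low at 885 CPM, and the highest library reached 8042 CPM. The part of these differences in the Map1lc3b and Sqstm1 values was not tested. Without KO LPS replicate 5 the Sqstm1 change in KO was 0.55 (adjusted p = 0.00347), still called, and Gabarapl1 in KO had an adjusted p of 0.0737.

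**Figure D2:**
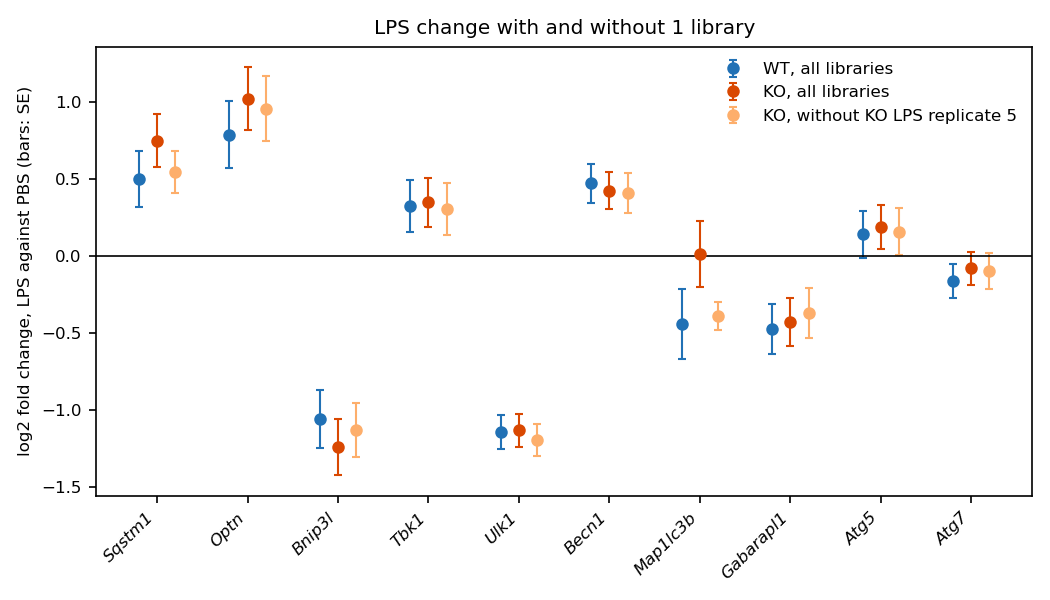
Fitted log2 fold changes for LPS against PBS (points, with bars for the SE) in wildtype (blue), in KO with all libraries (dark orange) and in KO without KO LPS replicate 5 (pale orange). Map1lc3b moves from 0.01 to -0.39 when the library is left out and Sqstm1 from 0.75 to 0.55, while the other 8 genes shift by less than their SE.

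The conjugation genes stayed near their PBS levels. Atg5 (chromosome 10, 44142076 to 44240308, plus strand), part of the complex that attaches ATG8 proteins to lipid, ranged from 31.3 to 48.2 CPM in wildtype PBS and from 41.9 to 48.4 CPM in wildtype LPS libraries. In KO mice the ranges were 36.3 to 59.1 and 44.1 to 60.5 CPM. Its log2 fold change was 0.14 (95% interval -0.18 to 0.46, adjusted p = 0.494) in wildtype and 0.19 (-0.11 to 0.49, adjusted p = 0.304) in KO. Atg7 (chromosome 6, 114620044 to 114837576, plus strand), the enzyme that activates ATG8 proteins for attachment, ranged from 25.0 to 31.6 and from 21.9 to 29.5 CPM in the wildtype groups and from 25.7 to 33.9 and from 23.6 to 28.5 CPM in the KO groups. Its log2 fold change was -0.16 (95% interval -0.40 to 0.08, adjusted p = 0.282) in wildtype and -0.08 (-0.30 to 0.15, adjusted p = 0.596) in KO. The intervals leave room for changes of up to about the fold threshold in Atg5.

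The values of the LPS and PBS groups did not overlap for 6 of the 10 genes in wildtype (Sqstm1, Optn, Map1lc3b, Becn1, Ulk1 and Bnip3l), where 37.8% of all genes did not, and for 4 of the 10 in KO (Sqstm1, Optn, Ulk1 and Bnip3l), where 32.8% did not.

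**Figure D3:**
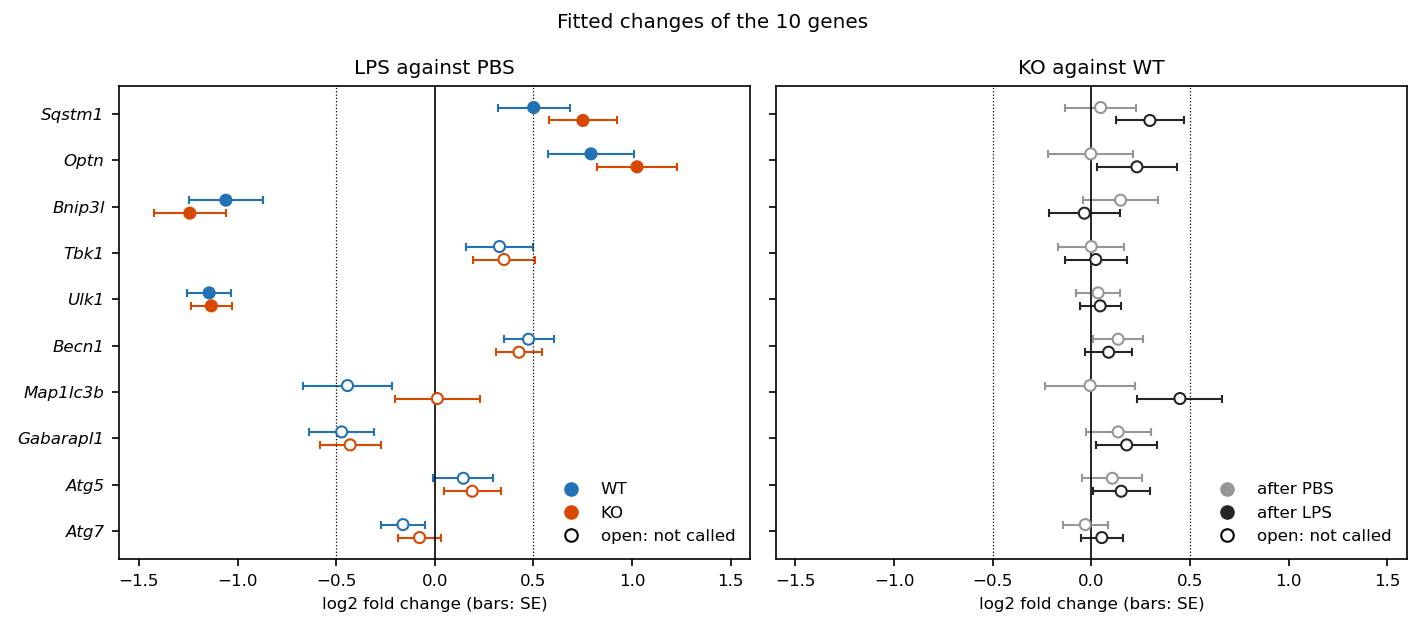
Fitted log2 fold changes of the 10 genes (points, bars for the SE) for LPS against PBS in wildtype (blue) and KO (orange) on the left, and for KO against wildtype after PBS (grey) and after LPS (black) on the right. Filled points were called, dotted lines mark 0.5 on either side of 0, and all 20 points on the right are open.

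The PARK7/DJ-1 genotype was then compared within each treatment, which addresses whether its loss alters these genes at rest or during inflammation. A gene was called here at an unadjusted p under 0.05 with a log2 fold change of at least 0.5 in size, the thresholds the authors used for this comparison. Few genes pass the adjusted threshold. None of the 10 was called after LPS, where 1.31% of all genes were, and none after PBS, where 0.8% were. The smallest unadjusted p of the edgeR test was that of Map1lc3b after LPS, with 0 of the 10 under 0.05 and an adjusted p of 1 for each. DESeq2 likewise called 0 of the 10 in either treatment. The groups overlapped for every one of the 10 genes, against 0.219% of all genes without overlap after LPS and 0.971% after PBS.

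After PBS the KO to wildtype log2 fold changes lay between -0.03 (Atg7) and 0.15 (Bnip3l), and 6 of the 10 were above 0. The 95% interval was -0.33 to 0.43 for Sqstm1, -0.45 to 0.45 for Optn, -0.20 to 0.26 for Ulk1 and -0.25 to 0.55 for Bnip3l. Changes beyond the fold threshold were therefore outside the interval for Sqstm1, Optn and Ulk1 but not for Bnip3l. After LPS 9 of the 10 were above 0, from -0.04 (Bnip3l) to 0.45 (Map1lc3b, 95% interval 0.00 to 0.90). Sqstm1 was at 0.30 (-0.06 to 0.66), Optn at 0.23 (-0.19 to 0.65) and Ulk1 at 0.04 (-0.17 to 0.26). The 10 values come from the same libraries and are not separate observations of the genotype. Without KO LPS replicate 5 the Map1lc3b difference was 0.05 (SE 0.089) and the Sqstm1 difference 0.09 (SE 0.140), whereas leaving out any 1 of the other 4 KO LPS libraries took Map1lc3b past both thresholds (0.52 to 0.57).

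Whether LPS acted differently in the genotypes was asked with the interaction of genotype and treatment in the same fit. It was called for 0 of the 10 genes and for 0 of 18739 genes (0%) at an adjusted p under 0.05, with 180 genes at an unadjusted p under 0.05, and DESeq2 also called 0 of the 10. The interaction was largest for Map1lc3b (0.46, SE 0.313, adjusted p = 0.9999) and was 0.05 without KO LPS replicate 5. For Ulk1 it was 0.01 (SE 0.151), for Bnip3l -0.18 (SE 0.261), for Optn 0.23 (SE 0.294) and for Sqstm1 0.25 (SE 0.249). The 95% interval of the interaction reached past 0.5 in size for 6 of the 10 genes (Sqstm1, Optn, Tbk1, Map1lc3b, Gabarapl1 and Bnip3l), so a difference of that size in the LPS response is not excluded for them.

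The proportion of the ATG8 genes was tested apart from the fit, as the log2 ratio of Gabarapl1 to Map1lc3b in each library, in which library depth cancels. The mean ratio was -0.80 ± 0.175 (SD, n = 4) in wildtype PBS, -0.85 ± 0.346 (n = 5) in wildtype LPS, -0.66 ± 0.0957 (n = 5) in KO PBS and -0.98 ± 0.785 (n = 5) in KO LPS libraries. In 4 exact two-sided permutation tests, LPS against PBS in each genotype and KO against wildtype in each treatment, the adjusted p was 0.841 each time, where the smallest unadjusted p the design allows is 0.00794. The difference in KO, -0.32 for LPS minus PBS, was 0.02 without KO LPS replicate 5.

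Levels were compared between genes only as CPM per kilobase of the GENCODE canonical transcript. In wildtype PBS libraries the order ran from Map1lc3b (127 ± 6.90 SD), Sqstm1 (79.0 ± 1.53), Bnip3l (49.5 ± 5.88) and Gabarapl1 (35.9 ± 5.06) over Tbk1 (28.8), Atg5 (17.2), Becn1 (12.6), Ulk1 (11.7) and Atg7 (7.62) to Optn (3.27 ± 0.731). Neighbours whose libraries overlapped were Bnip3l and Gabarapl1, Atg5 and Becn1, and Becn1 and Ulk1. In wildtype LPS libraries Sqstm1 came first (112 ± 24.2), overlapping Map1lc3b (93.7 ± 7.27), and Ulk1 last (5.30 ± 0.463), overlapping Optn (5.66 ± 1.31). The order of the most abundant genes depends on which transcript gives the length: the canonical Map1lc3b transcript has 889 bases, and on the only other transcript considered, the 1 with a consensus coding sequence (2532 bases), Map1lc3b under PBS was at 44.7, below Bnip3l. Over the canonical and all consensus coding transcripts, Sqstm1 was between 65.5 and 129.7 and Gabarapl1 between 19.6 and 86.4, while Optn stayed lowest at 2.55 to 3.87.

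The rest of the autophagy pathway was described with 10 lists holding 88 genes, the 10 members included. Of the other 78 genes 77 were tested. After LPS 11 of them were called higher and 24 lower in wildtype and 11 higher and 28 lower in KO, beside 18.4% higher and 17.4% lower over all genes in wildtype and 20.1% and 19% in KO. Their median log2 fold change was -0.21 and -0.20, beside -0.06 and -0.01 over all genes, and the counts for each list are to be read against the same shares. No gene of the lists was called in either KO against wildtype comparison. The lists were chosen with earlier results of these data known, and the counts describe them without a test.

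Among the 5 genes of the ULK1 initiation complex, 3 were called lower in wildtype and 4 in KO, with none higher (median -0.57 and -0.68). Ulk2, the second ULK kinase, went from 345 ± 52.3 CPM (SD, n = 4) to 117 ± 44.2 (n = 5) in wildtype, a log2 fold change of -1.56 (SE 0.217, adjusted p = 1.06e-05). In KO it changed by -1.66 (adjusted p = 2.62e-06). Rb1cc1, which encodes the scaffold FIP200, changed by -0.57 in wildtype and -0.68 in KO. Ulk1 thus moved in the same direction as its close relative.

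Of the 8 genes of the class III PI3K complex and its regulators, 2 were called lower in wildtype and 3 in KO, none higher (median -0.28 and -0.44). Atg14, which directs the complex to autophagy, changed by -0.96 (adjusted p = 1.29e-06) and -0.93 (adjusted p = 7.69e-07), and Rubcn, a negative regulator of it, by -0.74 and -0.73. Becn1 lay at the top of this list in both genotypes. Of the 7 ATG9, ATG2 and WIPI genes only Wdr45, which encodes WIPI4, was called, at -1.47 in wildtype and -1.90 in KO.

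The 11 genes of the ATG8 conjugation machinery gave 2 higher and 1 lower in each genotype (median 0.10 and 0.14). Atg16l2 rose by 0.99 (adjusted p = 0.0039) and 1.31 (adjusted p = 0.000158) and Atg16l1, the partner of ATG5, by 0.53 and 0.56, while the conjugating enzyme Atg10 fell by 1.38 and 1.44 on the log2 scale. In the ATG8 family of 5, Map1lc3a (-0.83 and -1.03) and Gabarapl2 (-0.71 and -0.53) were called lower in both genotypes, none was called higher, and Gabarap was at 0.02 and 0.00. The median of the family was -0.47 in wildtype and -0.43 in KO.

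The 14 selective autophagy receptors diverged. Of the 13 tested, 3 were called higher and 6 lower in each genotype (median -0.23 in both). Besides Sqstm1 and Optn, Tax1bp1, another ubiquitin-binding receptor, rose from 142 ± 7.57 to 252 ± 73.1 CPM in wildtype (0.83, adjusted p = 0.000685) and by 0.70 in KO (adjusted p = 0.00134). Nbr1, which also binds ubiquitin, went the other way, at -0.63 in wildtype (adjusted p = 0.00111) and -0.79 in KO (adjusted p = 7.02e-05). Calcoco1, a receptor for the endoplasmic reticulum and Golgi, fell from 53.5 ± 5.09 to 13.98 ± 2.76 CPM in wildtype (-1.94, adjusted p = 2.32e-06) and by 2.26 on the log2 scale in KO. Retreg1, a receptor for the endoplasmic reticulum, changed by -1.61 and -1.35. Calcoco2 did not pass the filter and lay at or below 0.324 CPM.

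Of the 5 genes for TBK1, IKBKE and their adaptors, 3 were called higher and none lower in each genotype (median 0.61 and 0.58). Ikbke, the inducible kinase most like TBK1, went from 2.79 ± 0.636 to 158 ± 73.1 CPM in wildtype (log2 fold change 5.82, SE 0.525, adjusted p = 6.45e-08) and from 3.54 ± 2.66 to 131 ± 41.8 CPM in KO (5.22, SE 0.459). The adaptor Tank changed by 1.63 and 1.83. Tbk1 itself was 1 of the 2 genes of this group that were not called.

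Among 13 mitophagy receptors and regulators, 3 were called higher and 2 lower in wildtype and 3 higher and 5 lower in KO (median -0.06 and -0.08). Phb2, a receptor of the inner mitochondrial membrane, rose from 49.7 ± 5.07 to 103 ± 8.87 CPM in wildtype (1.05, adjusted p = 2.95e-06) and by 1.00 in KO, and the ubiquitin ligase Marchf5 by 0.85 and 0.76. Fundc1, a receptor of the outer membrane like BNIP3L, changed by -0.90 in both. Bnip3, the close relative of Bnip3l, was not called (0.45, adjusted p = 0.14, and 0.13, adjusted p = 0.673).

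Of 10 genes for the fusion of autophagosomes with lysosomes, 5 were called lower in wildtype and 4 in KO and none higher, with Stx17, a SNARE of the autophagosome (-0.76 and -0.82), and Vps39, a subunit of the tethering complex HOPS (-0.75 and -0.82), changing most in wildtype among those called in both. The 10 transcriptional and nutrient regulators gave 2 higher and 4 lower in each genotype. Sesn2 (1.72 and 2.07) and Ddit4 (1.64 and 1.62), stress-induced inhibitors of mTORC1, rose, and the transcription factors Mitf (-1.02 and -1.29) and Foxo3 (-0.78 and -0.97) fell.

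**Figure D4:**
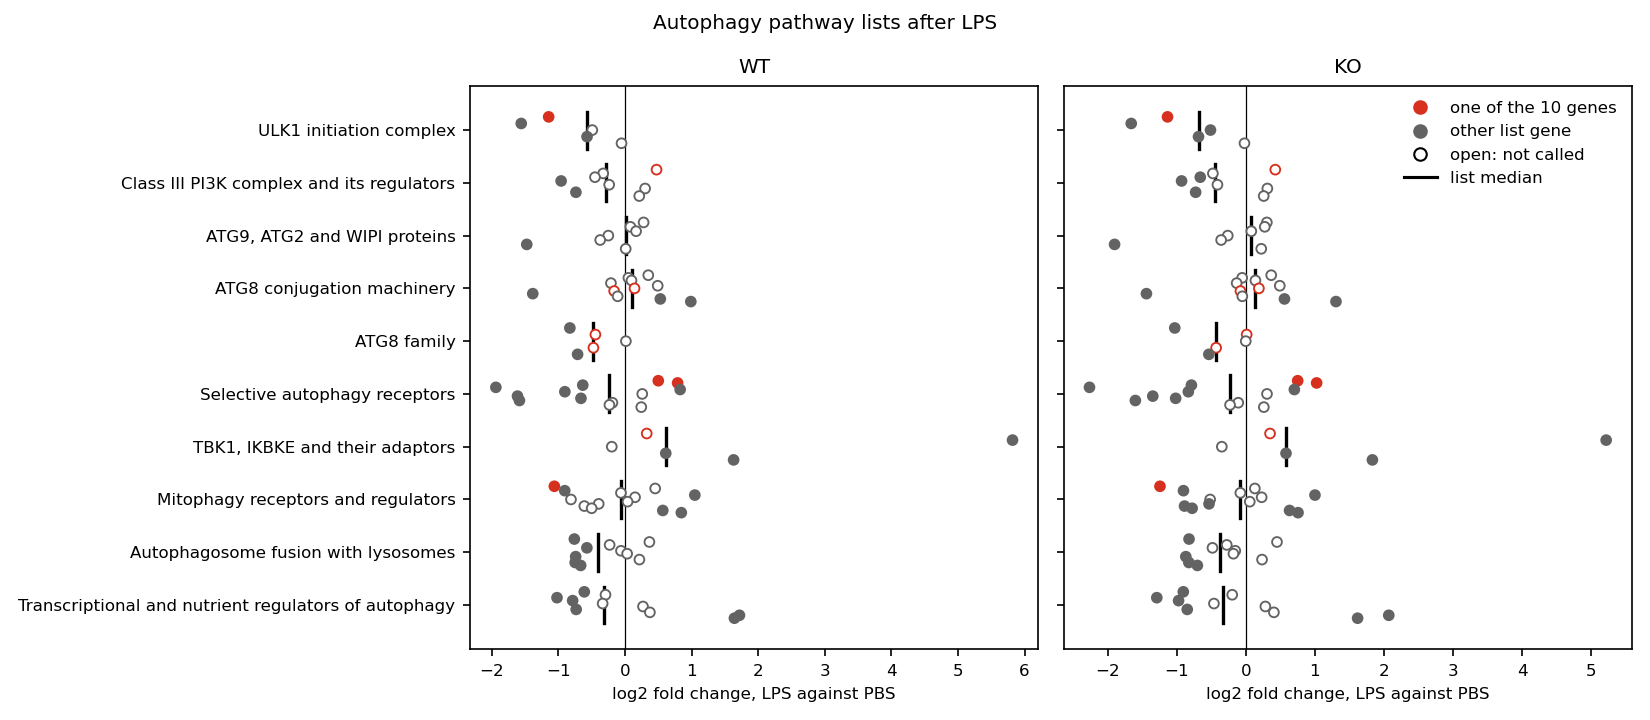
Fitted log2 fold changes for LPS against PBS of the tested genes in 10 autophagy lists, in wildtype (left) and KO (right), with the 10 genes described in red, other list genes in grey, open points for genes not called and a vertical bar for the median of each list. Ikbke lies far to the right at 5.82 and 5.22, and no gene of the initiation or fusion lists was called higher.

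The 3 genes with the highest Pearson r of log2 CPM to Optn over the 19 libraries were Cish (0.941), Myef2 (0.939) and Rbpms (0.938). For Ulk1 they were Slc26a11 (0.983), Cxcr3 (0.978) and Smim14 (0.978), of which Cxcr3 had a mean of only 1.11 CPM. These r values were taken across both treatments, so any gene that differs between LPS and PBS libraries ranks high, and they describe likeness of pattern only.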

How the data were processed

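Bulk RNA sequencing of CD11b+ brain cells from 19 mice was used. The authors deposited raw counts per gene; per the labels and methods they depleted ribosomal RNA, made stranded total RNA libraries, trimmed reads (cutadapt, listed as version 0.17.4), mapped them with STAR 2.7.9a to GRCm39 and counted them on Ensembl annotation. The strand setting of the counting is not given in the sources used here. No table column lacked a sample. Symbols came from GENCODE M39, which named 56236 of 56980 genes.

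Genes were kept by filterByExpr (minimum count 10, minimum total 15), normalised by TMM and tested with edgeR 4.0.16 (quasi-likelihood F test, R 4.3.3) in 1 fit of 4 groups, p-values adjusted by Benjamini-Hochberg over 18739 genes. SEs were taken as the log2 fold change over the square root of F. LPS calls needed an adjusted p under 0.05, KO against wildtype calls an unadjusted p under 0.05, both with a log2 fold change of at least 0.5; the interaction needed only the adjusted p. The fit was tested on simulated data with 200 changed genes. The ratio of ATG8 genes used exact permutation tests, on log2 CPM with a prior count of 2. Levels and floors of 3 counts cover counting error only. The p-values measure spread between these samples, taken as separate mice.

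Named genes were the 10 members, Park7 and markers. In each list up to 2 genes per direction were named, those with the largest wildtype change among genes called in both genotypes. The 3 genes most like the members with the highest and the lowest wildtype change were also named. Gabarap, Calcoco2, Nbr1, Bnip3, Zcchc14, Mgat4b, Mrnip, Bnip3l-ps and the stress genes were added after their values were seen. The members and lists were chosen with earlier results of these data known. A gene of the mitophagy list and a microglial marker are not reported here, and the counts and sums leave them out. No pair of libraries in a group differed by less than sampling noise (chi-square per degree of freedom at least 6.7). Alternatives were DESeq2 1.42.0, its size factors, other filters, only the groups compared, a replicate block, mitochondrial and ribosomal RNA left out, a score of 19 markers of other brain cells as a covariate, other thresholds and each library left out.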

Additional observations from a re-analysis of the deposited data

Results flagged for a closer look

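Of 40 groups of values (10 genes in 4 groups), 2 held a library that stood apart, judged by its gap to the nearest other value as a share of the whole range. Chance alone gives about 1 such group in 20. For Map1lc3b in KO LPS mice the share was 0.871, with replicate 5 at 225 CPM and the next library at 92.6 CPM. For Atg7 in KO PBS mice it was 0.756, with replicate 2 at 33.9 CPM and the next at 27.7 CPM. Neither was given an explanation here, and what sets these libraries apart was not tested.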

How the results depend on the processing

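The LPS calls of Optn, Ulk1 and Bnip3l in both genotypes and of Sqstm1 in KO held in all 8 other fits and all 19 fits that left out a library. Sqstm1 in wildtype decided the count of higher genes there, which went from 2 to 1 with DESeq2, with its size factors, without the filter on low counts, with at least 10 counts in every library and with the groups compared only. At any fold change this count was 3. Leaving out a library gave 1 to 3 higher genes in wildtype and 0 to 1 in KO against wildtype after LPS, the latter being Map1lc3b without KO LPS replicate 1, 2, 3 or 4. Becn1 and Gabarapl1, close to the fold threshold, were called in wildtype in 4 and 6 of these 27 fits.

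The labels do not say that a replicate number marks a shared litter or day, and libraries of the same number did not deviate together in every pair. The correlation of their deviations averaged 0.33 (-0.04 to 0.58) for LPS against PBS in wildtype, 0.25 (0.03 to 0.54) in KO, -0.10 (-0.57 to 0.30) for KO against wildtype after LPS and -0.01 (-0.29 to 0.30) after PBS. With the replicate number as a block, only Optn of the 10 genes was called higher after LPS in wildtype (0.72), Sqstm1 there was at 0.41 with an adjusted p of 0.0616 and was not called, Map1lc3b for LPS in KO was at -0.078 and Sqstm1 for KO against wildtype after PBS at -0.029, and KO against wildtype calls over all genes numbered 78 higher and 154 lower after LPS and 45 and 189 after PBS. In the correlations 2 of 4, 3 of 5, 1 of 5 and 2 of 4 libraries were closest to their own number.

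Values near 0 changed sign. Map1lc3b for LPS in KO was at -0.033 without the filter, -0.051 with the stricter filter and -0.045 with the score of other-cell markers as a covariate. For KO against wildtype after PBS, Optn came to 0.0061 with the groups compared and 0.0067 with mitochondrial and ribosomal RNA left out, Tbk1 to 0.0072 and 0.0077 and, with the covariate, to 0.0024, and Map1lc3b to 0.0013 and 0.0023.

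With libraries left out, Map1lc3b for LPS in KO ranged from -0.39 to 0.14. For KO against wildtype after LPS the ranges were -0.072 to 0.15 (Tbk1), -0.018 to 0.13 (Ulk1) and -0.17 to 0.075 (Bnip3l). After PBS they were -0.18 to 0.12 (Optn), -0.085 to 0.051 (Tbk1), -0.041 to 0.033 (Map1lc3b), -0.022 to 0.19 (Atg5), -0.11 to 0.021 (Atg7) and -0.0030 to 0.25 (Bnip3l). For the interaction they were -0.071 to 0.14 (Tbk1), -0.071 to 0.15 (Gabarapl1), -0.13 to 0.056 (Becn1), -0.042 to 0.17 (Atg5) and -0.052 to 0.098 (Ulk1). The difference in the ratio of Gabarapl1 to Map1lc3b ranged from -0.13 to 0.087 for LPS in wildtype, -0.48 to 0.017 for LPS in KO and -0.29 to 0.21 for KO against wildtype after LPS. The cause of these changes was not tested.

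Over all genes, the 245 and 150 KO against wildtype calls after LPS and after PBS depended on the fit. Without the filter they were 347 higher and 507 lower after LPS and 241 and 439 after PBS, with the groups compared 36 and 69 (LPS) and 28 and 117 (PBS), with the stricter filter 42 and 69 and 6 and 52, and with the covariate 146 and 215 and 94 and 190. Depth limits Optn most, at under 22 CPM in every library.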
